A study of Mus musculus with 10 samples.

Results

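The genes described here are 10 components of fibroblast growth factor (FGF) signalling: the receptors Fgfr1, Fgfr2, Fgfr3 and Fgfr4, the ligands Fgf1 and Fgf2, and the feedback inhibitors Spry1, Spry2, Spry4 and Dusp6. They were chosen by name, with earlier results of these data known, and all 10 were found among the 24594 genes of the count table. Their RNA was measured in luminal cells, the inner layer of the mammary ducts, and in basal cells, the contractile outer layer. Both populations were sorted by EpCAM and CD49f from dissociated mammary glands of virgin wild type C57BL/6J mice, with 5 libraries per cell type. No treatment and no age are given in the labels, and each library is a bulk sample of its sorted population. In such samples, fewer expressing cells and less RNA per cell cannot be told apart.

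FGF ligands are secreted proteins that bind receptor tyrosine kinases together with heparan sulfate chains on the cell surface. An occupied receptor phosphorylates the docking protein FRS2, which recruits GRB2 and SOS and activates the RAS-RAF-MEK-ERK cascade. ERK signalling in turn induces genes of its own inhibitors, among them the Sprouty proteins, which dampen signalling between receptor and RAF, and the phosphatase DUSP6, which inactivates ERK. In the mammary gland FGFR2 in the epithelium is known for its role in branching of the ducts.

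The libraries held 13203146 to 17998165 counts, and 16840 to 17842 genes had at least 1 count. Sample titles name the opposite cell type to the cell type label in all 10 libraries, and the label was used. All 9 luminal markers were higher in the libraries labelled luminal and all 7 basal markers in those labelled basal. Summed basal markers in luminal libraries reached 0.207% to 0.615% of the mean basal sum, and summed luminal markers in basal libraries reached 10.8% to 14.1% of the mean luminal sum, most of it Krt8, Krt18 and Epcam. The luminal genes Prlr (1190.3 against 0.993 CPM), Kit (182 against 1.19 CPM) and Elf5 (92.0 against 0.165 CPM) were near 0 in basal libraries. Of 7 fibroblast markers, Pdgfra and Pdgfrb were higher in basal libraries, Dcn was higher in luminal libraries and 4 were not called, with sums of 27.9 to 118 CPM (counts scaled to library size) in luminal and 37.8 to 56.9 CPM in basal libraries. The 4 endothelial markers summed to 1.69 to 4.06 CPM in luminal and 6.00 to 13.1 CPM in basal libraries, the 5 immune markers to 4.13 to 11.3 and 12.2 to 34.4 CPM, and the 3 adipocyte markers to at most 1.06 CPM, with Adipoq and Cd3e at 0 throughout. Of the immune markers, Cd74 was higher in basal libraries (2.62 against 20.7 CPM), whereas Cd52 (4.65 against 1.13 CPM) and Lyz2 (1.31 against 0.395 CPM) were higher in luminal libraries. Of the 4 endothelial markers, Cdh5 was higher in basal libraries (0.217 against 4.58 CPM), 1 was not called and 2 were not tested. The sorting methods of the study include staining for lineage markers, CD31 and CD45 among them. Whether those methods apply to these libraries is uncertain. The part of these other cells in the results was not tested.

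Most of the 10 genes were higher in basal cells. Of the 9 genes with enough counts to be tested, 7 were higher in basal cells (Fgfr1, Fgfr3, Fgf1, Fgf2, Spry1, Spry2 and Dusp6), whereas over all 14609 genes tested 31.2% were higher in basal cells. Fgfr2 was the 1 member higher in luminal cells, where 33.6% of all genes were called, and Spry4 did not pass the test. Genes were called where the quasi-likelihood test of edgeR gave an adjusted p below 0.05, and 64.8% of all genes were called in either direction. The median log2 fold change, luminal against basal, was -1.64 over the 9 genes and 0.05 over all genes. For 7 of the 9 genes, all but Spry1 and Spry4, no luminal library fell within the basal range or the reverse, as for 50.1% of all genes. The 6 such members with higher basal levels stand beside 25.3% of all genes, and the 1 with higher luminal levels beside 24.7%.

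**Figure D1:**
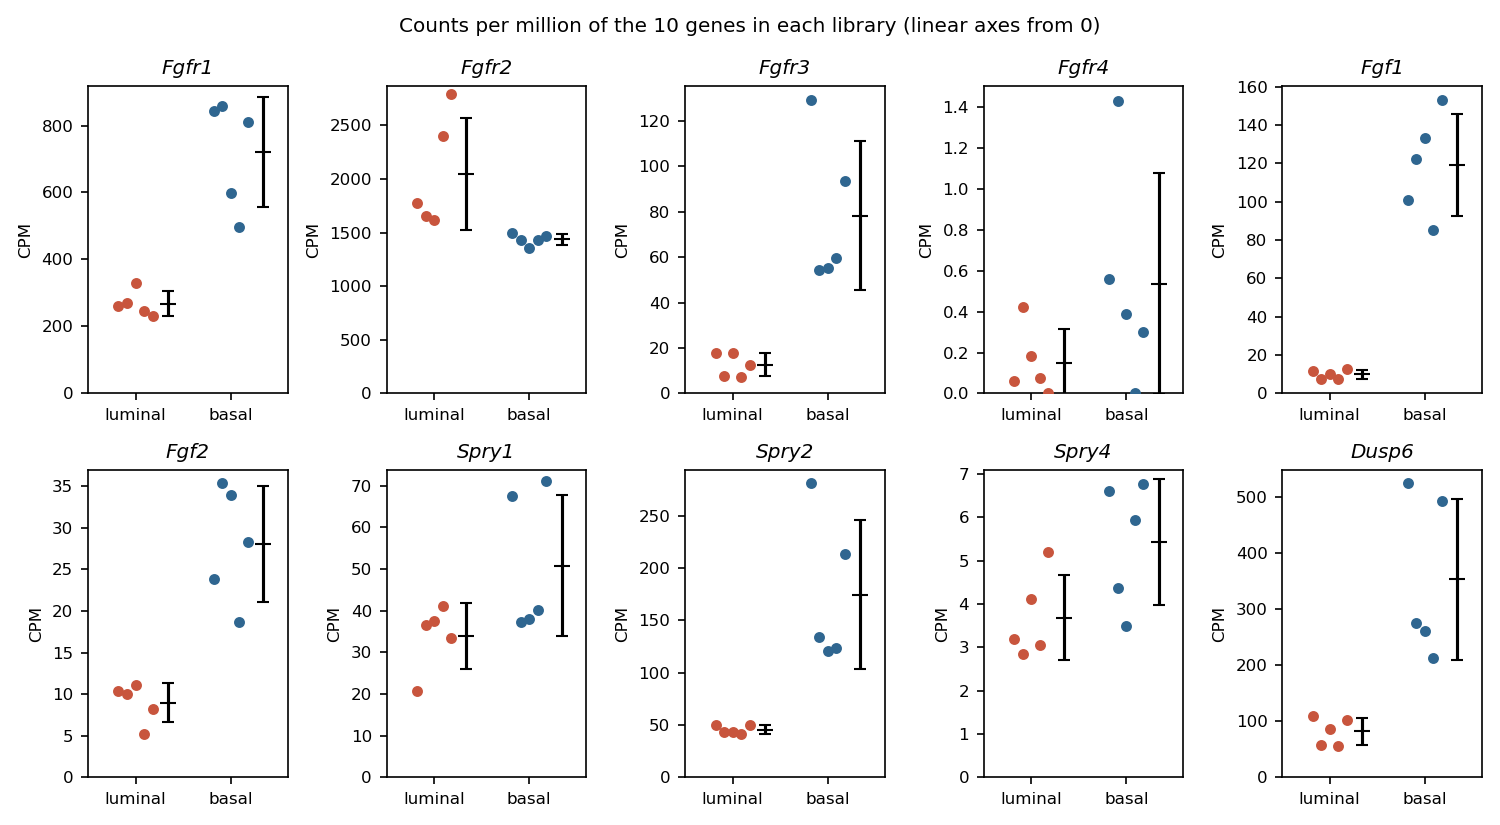
CPM of each of the 10 genes (vertical, linear axis from 0) in the 5 luminal (red) and 5 basal (blue) libraries, drawn left to right in order of replicate number, with the mean and SD in black. Fgf1 sits at 7.33 to 12.9 CPM in luminal and 85.5 to 153 CPM in basal libraries, while Fgfr2 is higher in luminal cells. The lower SD bars of Fgfr4 end below the axis.

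Among the receptors, Fgfr2 was the most abundant in both layers and the only one higher in luminal cells. Fgfr2 (Entrez 14183, chr7:130162451-130266808, minus strand, GRCm38.p6) encodes the receptor whose epithelial isoform binds FGF7 and FGF10, and gene counts do not separate this isoform from the mesenchymal one. Luminal replicates 1 to 5 measured 1780.3, 1655, 1614, 2402 and 2795 CPM. Basal replicates 1 to 5 measured 1493, 1427, 1361, 1428 and 1472 CPM. The groups did not overlap, although the lowest luminal library stood close above the highest basal one. Luminal replicates 4 and 5 were well above the rest. The means were 2049 CPM ± 524 (SD, n = 5) for luminal against 1436 CPM ± 50.8 (SD, n = 5) for basal cells, a log2 fold change of 0.51 (SE 0.18, adjusted p = 0.0230). The call was lost without luminal replicate 5 (log2 fold change 0.37, adjusted p = 0.0677), without basal replicate 2 (0.50, adjusted p = 0.0508) and without basal replicate 3 (0.50, adjusted p = 0.0501). All 5 same-numbered library pairs were higher in luminal cells. GENCODE lists 314 of the 10328 exon bases of Fgfr2 as shared with Ctbp2 on the same strand, a gene that was not called (78.2 against 69.0 CPM).

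Fgfr1 (Entrez 14182, chr8:25518759-25575718, plus strand), a receptor widely expressed in mesenchyme, was 2.70-fold higher in basal cells. Its luminal libraries stood at 261, 269.7, 329, 246 and 231 CPM. Its basal libraries stood at 843, 859.7, 597, 498 and 810.2 CPM. Every basal library thus exceeded every luminal library, and basal replicates 3 and 4 were the lowest of their group. The means were 268 CPM ± 37.4 (SD, n = 5) and 722 CPM ± 164 (SD, n = 5), a log2 fold change of -1.43 (SE 0.18, adjusted p = 8.98e-06). The antisense gene Gm16159 shares 164 of the 9875 annotated exon bases of Fgfr1 and was also higher in basal cells (8.39 against 26.7 CPM), and strand use in the counting is not given in the sources used here.

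Fgfr3 (Entrez 14184, chr5:33721724-33737068, plus strand), known as a brake on cartilage growth, showed the largest difference of the receptors tested. Luminal libraries held 17.8, 7.74, 17.8, 7.33 and 12.6 CPM. Basal libraries held 129, 54.2, 55.3, 59.5 and 93.4 CPM. The groups were well apart, and basal replicates 1 and 5 were the highest. Fgfr3 was 6.19-fold higher in basal cells (log2 fold change -2.63, SE 0.32, adjusted p = 5.51e-06; means 12.6 CPM ± 5.14 and 78.3 CPM ± 32.8, SD, n = 5 each). The antisense gene G630022F23Rik shares 998 of the 7158 exon bases of Fgfr3. No level of G630022F23Rik was obtained, and here too the reads of the shared part cannot be told apart without strand.

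Fgfr4 (Entrez 14186, chr13:55152818-55168759, plus strand), a receptor best known from liver, was barely detected. The luminal libraries held 1, 8, 3, 1 and 0 counts and the basal libraries 9, 21, 5, 0 and 5 counts. The ranges overlap, and basal replicate 2 holds more than any other library. It did not pass the filter on low counts, and without that filter it was not called (log2 fold change -1.82, adjusted p = 0.156). Whether low depth or the spread between libraries accounts for the lack of a call in Fgfr4 was not tested.

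The make-up of the receptor transcripts was compared after division by the length of the longest annotated transcript (CPM per kilobase), as a description without a test. Fgfr2 made up 88.6% ± 3.55 (SD, n = 5) of the summed receptor level in luminal and 67.1% ± 4.80 (SD, n = 5) in basal cells. Fgfr1 made up 10.8% ± 3.32 and 29.2% ± 4.35, and Fgfr3 0.607% ± 0.311 and 3.74% ± 1.27. Fgfr2 was therefore the main receptor transcript of both layers, with Fgfr1 taking a larger part in each basal library than in any luminal library. Fgfr4 was at most 0.0852% in any library. The ratio of Fgfr2 to Fgfr1 was 9.04 ± 3.33 in luminal and 2.37 ± 0.569 in basal cells. The summed receptor level overlapped between the layers, at 519 ± 112 CPM per kilobase in luminal and 486 ± 46.0 CPM per kilobase in basal cells.

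**Figure D2:**
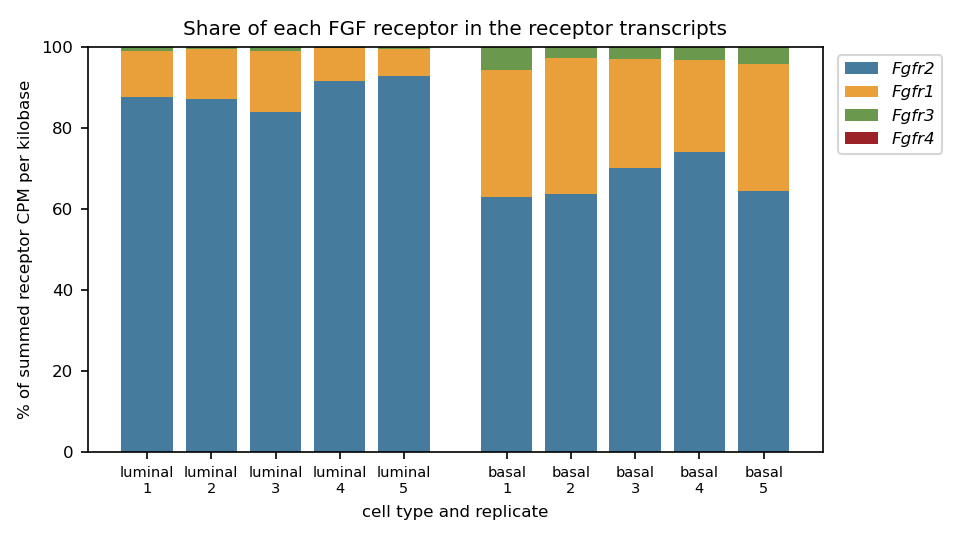
Share of each receptor (percent of the summed receptor CPM per kilobase, vertical) in each library (horizontal, cell type and replicate). Fgfr2 takes 84.0% to 92.8% in luminal and 63.0% to 74.1% in basal libraries, Fgfr1 takes most of the rest, and Fgfr4 is too small to be seen.

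Both ligands were higher in basal cells (31.2% of all genes), and Fgf1 differed more than any other of the 9 genes tested. Fgf1 (Entrez 14164, chr18:38838672-38929470, minus strand) encodes a ligand that binds all FGF receptors. In luminal libraries it measured 11.7, 7.64, 10.4, 7.33 and 12.9 CPM. In basal libraries it measured 101, 123, 133, 85.5 and 153 CPM. The groups were far apart, and the lowest basal library was several times the highest luminal one. The means of 9.99 CPM ± 2.47 (SD, n = 5) and 119 CPM ± 26.6 (SD, n = 5) gave an 11.9-fold higher level in basal cells (log2 fold change -3.57, SE 0.21, adjusted p = 4.55e-09). Fgf1 in luminal libraries was 6.15% to 10.9% of its basal mean, while the summed basal markers there were at most 0.615% of theirs. The part of basal cells in the luminal level of Fgf1 was not tested.

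Fgf2 (Entrez 14173, chr3:37348477-37410106, plus strand), a ligand stored in the extracellular matrix on heparan sulfate, followed in the same direction at lower levels. Luminal libraries gave 10.3, 10.1, 11.0, 5.27 and 8.25 CPM. Basal libraries gave 23.9, 35.4, 34.0, 18.7 and 28.2 CPM. No basal library fell into the luminal range, and replicate 4 was the lowest in both layers. Fgf2 was 3.11-fold higher in basal cells (log2 fold change -1.64, SE 0.23, adjusted p = 2.39e-05; means 8.99 CPM ± 2.32 and 28.0 CPM ± 6.97, SD, n = 5 each). The antisense gene Nudt6 shares 640 of the 6782 exon bases of Fgf2 and was likewise higher in basal cells (6.14 against 22.3 CPM, log2 fold change -1.86), so without strand the reads of the shared part cannot be told apart. On the same strand, 255 exon bases are shared with the transcript Gm43439. Per kilobase, the ratio of Fgf1 to Fgf2 was 1.74 ± 0.492 in luminal and 6.48 ± 1.11 in basal cells (SD, n = 5 each).

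**Figure D3:**
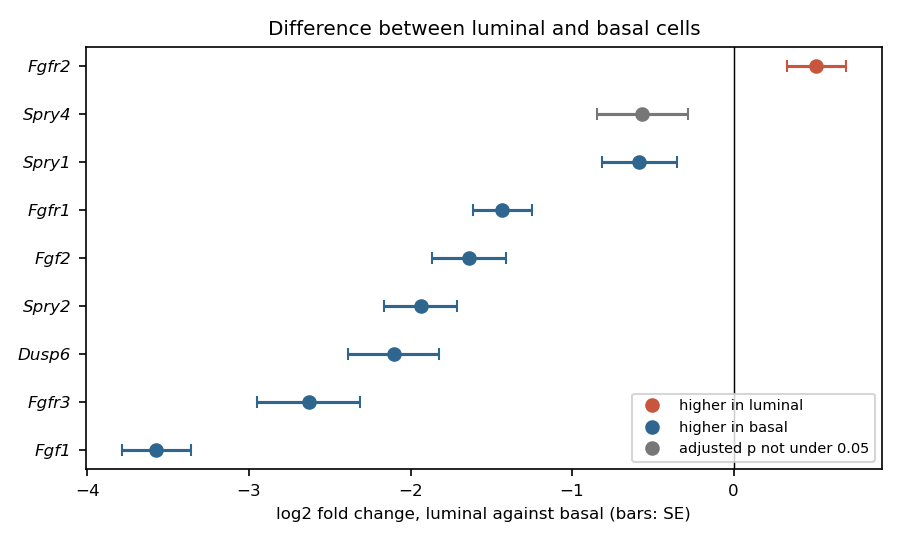
Log2 fold change, luminal against basal, with its SE for the 9 genes tested (n = 5 per cell type). Fgfr2 lies right of 0 at 0.51, Spry4 (grey) was not called, and the rest lie left of 0 down to Fgf1 at -3.57.

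The feedback inhibitors separated into a pair with large differences, Spry2 and Dusp6, and a pair with small ones, Spry1 and Spry4. Of the 4, 3 were higher in basal cells (31.2% of all genes) and none in luminal cells (33.6%). Their expression is commonly read as a record of ERK activity, and ERK acts on many genes through the family of ETS factors. The sequences upstream of the transcription starts of Spry1, Spry2 and Dusp6 were therefore inspected for the letters bound by ETS factors. ERK activity itself was not measured, and the part of tissue dissociation in these RNA levels was not tested.

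The 250 bases before the start site of Spry1, Spry2 and Dusp6 are shown as those of the feedback inhibitors matched in the promoter table, which Spry4 was not (RefSeq promoter table, GRCm38.p6, each printed 5′ to 3′ on the strand of the gene). Capitals mark GGAA, the core of ETS sites, or TTCC, which is GGAA on the other strand. The windows are chr3:37639697-37639946 on the plus strand for Spry1, chr14:105896820-105897069 on the minus strand for Spry2 and chr10:99262981-99263230 on the plus strand for Dusp6.
Spry1: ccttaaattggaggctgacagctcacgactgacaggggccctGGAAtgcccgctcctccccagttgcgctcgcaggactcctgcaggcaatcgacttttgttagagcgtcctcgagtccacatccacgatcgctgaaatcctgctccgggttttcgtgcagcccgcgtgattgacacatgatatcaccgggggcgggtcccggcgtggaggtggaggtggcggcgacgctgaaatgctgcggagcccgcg
Spry2: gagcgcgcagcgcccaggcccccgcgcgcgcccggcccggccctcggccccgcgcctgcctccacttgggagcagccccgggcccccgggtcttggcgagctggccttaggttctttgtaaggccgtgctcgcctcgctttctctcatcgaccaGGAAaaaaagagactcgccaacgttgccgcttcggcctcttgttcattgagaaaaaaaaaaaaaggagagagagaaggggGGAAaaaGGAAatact
Dusp6: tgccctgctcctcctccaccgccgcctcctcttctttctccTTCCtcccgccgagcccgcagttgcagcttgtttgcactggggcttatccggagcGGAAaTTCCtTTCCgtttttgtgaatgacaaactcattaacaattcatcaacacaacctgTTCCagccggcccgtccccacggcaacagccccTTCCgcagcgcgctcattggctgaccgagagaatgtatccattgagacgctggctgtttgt

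GGAA occurred 1 time upstream of Spry1, 3 times upstream of Spry2 and 6 times upstream of Dusp6, counting both strands. Among 32851 windows of the same length in the table, 93.4% held at least 1 match, 54.7% held 3 or more and 8.69% held 6 or more. The longer ETS site CCGGAA, which contains GGAA, was in none of the 3 windows and in 12.0% of all windows. The AP-1 site TGANTCA, present in 6.75% of all windows, and the TATA box TATAAA, present in 12.4%, were likewise in none of them, and the GC box GGGCGG, present in 32.7%, occurred only in that of Spry1. GC content was 62.4% for Spry1, 62.4% for Spry2 and 56.4% for Dusp6, against a median of 52.4% over all windows. The matches describe these letters only, and with 3 genes no relation to the fold changes was examined.

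Dusp6 (Entrez 67603, chr10:99263231-99267489, plus strand) was 4.30-fold higher in basal cells. Its luminal libraries measured 109, 57.2, 86.1, 56.9 and 102 CPM. Its basal libraries measured 525, 275, 261, 213 and 492 CPM. The groups did not overlap, and replicates 1 and 5 were the highest in each layer. This amounts to a log2 fold change of -2.10 (SE 0.28, adjusted p = 1.44e-05; means 82.2 CPM ± 24.4 and 353 CPM ± 144, SD, n = 5 each).

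Spry2 (Entrez 24064, chr14:105891947-105896819, minus strand) was 3.83-fold higher in basal cells. Luminal replicates lay close together at 49.7, 43.4, 43.6, 41.0 and 50.3 CPM. Basal replicates were spread over 282, 134, 121, 123 and 213 CPM. All basal libraries stood above all luminal libraries, and as with Dusp6 replicates 1 and 5 were the highest in both layers. This amounts to a log2 fold change of -1.94 (SE 0.23, adjusted p = 4.07e-06; means 45.6 CPM ± 4.12 and 175 CPM ± 70.8, SD, n = 5 each). The coefficient of variation of Spry2 was 9.04% in luminal and 40.6% in basal libraries, and that of Dusp6 29.7% and 40.7%, where the medians over all genes tested were 24.4% and 19.7%.

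Spry1 (Entrez 24063, chr3:37639947-37644599, plus strand) was called higher in basal cells, yet its groups overlapped. In luminal replicates it stood at 20.7, 36.6, 37.6, 41.2 and 33.6 CPM. In basal replicates it stood at 67.5, 37.3, 38.1, 40.1 and 71.3 CPM. Replicates 2, 3 and 4 were nearly level between the layers, and the difference lay in replicates 1 and 5. Its log2 fold change of -0.58 (SE 0.23; means 33.9 CPM ± 7.89 and 50.9 CPM ± 17.0, SD, n = 5 each) had an adjusted p of 0.0386, and the call was lost with same-numbered libraries as a block (log2 fold change -0.55, adjusted p = 0.0941). It was also lost without luminal replicate 1 (adjusted p = 0.0986), 2 (0.0625) or 5 (0.0632) and without basal replicate 1 (0.0996) or 5 (0.133). The antisense gene Gm42922 shares 710 of the 2906 exon bases of Spry1. No level of Gm42922 was obtained, and without strand the reads of the shared part cannot be told apart.

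Spry4 (Entrez 24066, chr18:38586247-38601347, minus strand) was the lowest of the 4 inhibitors in both layers. Luminal libraries held 3.19, 2.84, 4.11, 3.05 and 5.20 CPM. Basal libraries held 6.61, 4.37, 3.48, 5.94 and 6.77 CPM. The ranges overlapped, and 4 of 5 same-numbered pairs were higher in basal cells. The log2 fold change was -0.56 (SE 0.28) with an adjusted p of 0.0951 (means 3.68 CPM ± 0.979 and 5.43 CPM ± 1.45, SD, n = 5 each), and it passed the threshold without luminal replicate 5 (-0.72, adjusted p = 0.0459). Spry1 and Spry4 thus had similar fitted differences, and whether they differ from each other was not tested.

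**Figure D4:**
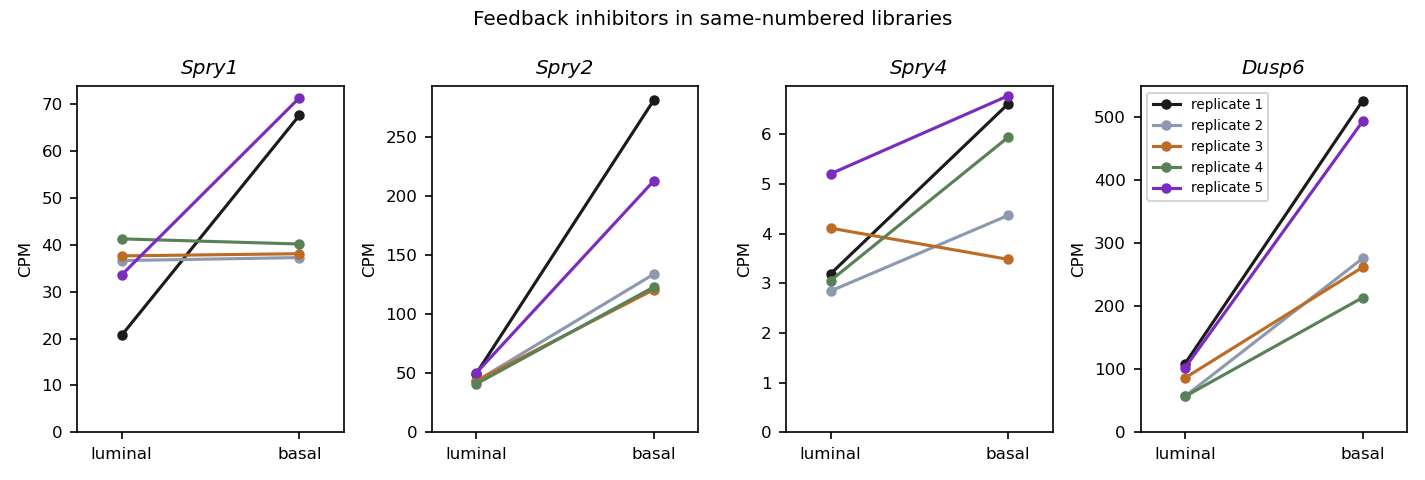
CPM of the 4 feedback inhibitors (vertical, linear axis from 0) in luminal and basal cells, with a line joining the libraries of the same replicate number. The lines of Spry2 and Dusp6 all rise towards basal cells, those of Spry1 rise clearly only in replicates 1 and 5, and that of replicate 3 falls in Spry4.

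Levels were ordered within each layer by CPM per kilobase. The receptor transcripts have 17 or 18 exons and those of the feedback inhibitors 2 or 3. The aligner named for these data leaves reads across splice junctions unaligned as a rule. The part of such reads in the order was not tested. In luminal cells the order was Fgfr2 (463 ± 118), Fgfr1 (53.1 ± 7.42), Dusp6 (29.4 ± 8.74), Spry2 (21.8 ± 1.98), Spry1 (12.2 ± 2.85), Fgfr3 (2.98 ± 1.21), Fgf1 (2.51 ± 0.620), Fgf2 (1.5 ± 0.388), Spry4 (0.774 ± 0.206) and Fgfr4 (0.0448 ± 0.050). The ranges of the neighbours Dusp6 and Spry2, Fgfr3 and Fgf1, Fgf1 and Fgf2, and Fgf2 and Spry4 overlapped. In basal cells it was Fgfr2 (324 ± 11.5), Fgfr1 (143 ± 32.5), Dusp6 (126 ± 51.5), Spry2 (83.7 ± 33.9), Fgf1 (29.9 ± 6.67), Fgfr3 (18.5 ± 7.72), Spry1 (18.3 ± 6.14), Fgf2 (4.69 ± 1.17), Spry4 (1.14 ± 0.304) and Fgfr4 (0.161 ± 0.163). Here Fgfr1 and Dusp6, Dusp6 and Spry2, Fgf1 and Fgfr3, and Fgfr3 and Spry1 overlapped. The first 4 places were the same in both layers, and Fgf1 stood in place 7 in luminal and place 5 in basal cells.

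Further genes of the pathway were taken from a list of 77, of which 62 were tested. Of these, 13 were higher in luminal cells, 30 were higher in basal cells and 19 were not called, against 33.6% (luminal) and 31.2% (basal) of all genes tested. No difference between roles was tested. The median log2 fold change of the 62 genes was -0.47.

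Secreted ligands other than Fgf1 and Fgf2 were scarce. Of 16 genes, 4 were tested, and 3 were higher in basal cells (31.2% of all genes). These 3 held at most 3 (Fgf21), 5 (Fgf7) and 24 (Fgf20) counts in luminal libraries. They passed the filter on low counts through their basal libraries, which favours a call in that direction. The count of 3 beside the share of all genes is therefore not a result about the ligands. Fgf21, known as a metabolic hormone, was at most 3 counts in every luminal library and 12.7 CPM ± 5.31 (SD, n = 5) in basal cells, at least 66.9-fold higher against a floor of 3 counts per library. Fgf7 and Fgf20, named after their values were seen, had means of 0.184 and 0.893 CPM in luminal and 2.39 and 2.70 CPM in basal cells (adjusted p = 0.000676 and 0.00677). Basal replicate 1 held 6.61 CPM of Fgf7 and the other 4 basal libraries 1.08 to 1.64 CPM, and without it the basal mean was 1.34 CPM (log2 fold change -2.86, adjusted p = 0.00244). Fgf22 was not called (log2 fold change -0.59, adjusted p = 0.220). Fgf10, the stromal ligand of FGFR2 in the gland, did not exceed 0.382 CPM in any library.

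The intracellular FGF homologues, which are not secreted and do not act as classical receptor ligands, had 3 of 4 genes higher in luminal cells (33.6% of all genes). Among these 3, Fgf12, named after its values were seen, held 10 to 26 counts in luminal and 2 to 5 in basal libraries. It passed the filter on low counts through its luminal libraries, which favours a call in that direction. Fgf13, a partner of sodium channels, measured 21.9 CPM ± 8.65 in luminal and 4.14 CPM ± 0.948 in basal cells (log2 fold change 2.40, adjusted p = 7.38e-06). Fgf14 measured 9.30 CPM ± 1.63 and 4.45 CPM ± 0.492 (log2 fold change 1.07, adjusted p = 0.000488). Fgf11 was not called (adjusted p = 0.187).

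Of 5 co-receptors, decoys and carriers, 3 were tested. Fgfrl1, a receptor without a kinase domain, was 5.23-fold higher in basal cells (24.8 CPM ± 4.06 against 130.02 CPM ± 9.04, adjusted p = 4.15e-09). Fgfbp1, a carrier that releases FGF from the matrix, was higher in luminal cells (22.1 CPM ± 6.17 against 1.26 CPM ± 2.31, log2 fold change 4.10, adjusted p = 0.000515), with 1 basal library, replicate 4, at 5.38 CPM and the other 4 at no more than 0.539 CPM. Without that library the log2 fold change was 6.52 (adjusted p = 4.37e-07), with limma voom it was 6.33 and with the replicate block 5.16.

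Genes of heparan sulfate, the co-factor of FGF binding, were all tested, and 10 of 17 were higher in basal cells (31.2% of all genes) and 3 in luminal cells (33.6%). The endosulfatases, which trim sulfate groups from the chains, were opposed. Sulf1 was 11.4-fold higher in basal cells (6.87 CPM ± 2.26 against 77.8 CPM ± 22.6, adjusted p = 3.86e-08) and Sulf2 was 10.4-fold higher in luminal cells (77.5 CPM ± 36.0 against 7.41 CPM ± 1.68, adjusted p = 2.83e-07). The sulfotransferase gene Hs6st2 (0.144 against 5.40 CPM) and the core protein gene Gpc3 (1.55 against 7.54 CPM) were higher in basal cells. Hs6st2 held at most 5 counts in luminal libraries and passed the filter on low counts through its basal libraries. Ndst1 (log2 fold change 0.77) and Hs2st1 (0.60), which modify the chains during synthesis, were higher in luminal cells.

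Among 10 adaptors and receptor effectors, 7 were higher in basal cells (31.2% of all genes) and 1 in luminal cells (33.6%). Plcg1, a phospholipase activated at the receptor, was 4.36-fold higher in basal cells (29.5 CPM ± 8.73 against 129 CPM ± 19.9, adjusted p = 7.56e-07). Sos2 (log2 fold change -0.92) and Shc1 (-0.79) were also higher there, and Grb2 was higher in luminal cells (0.45, adjusted p = 0.0118).

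Of 10 genes of the RAS-RAF-MEK-ERK cascade, 3 were higher in each direction, near the 33.6% (luminal) and 31.2% (basal) of all genes tested. Braf (log2 fold change -1.30), Map2k1 (-0.84) and Nras (-0.76) were higher in basal cells. Araf (0.57) and Map2k2 (0.46) were among those higher in luminal cells. The call of Map2k2 was lost without basal replicate 1 (0.0646) or 2 (0.0531).

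Of 6 transcriptional targets, 2 were higher in each direction, again near the shares of all genes. Etv5, an ETS factor induced by FGF signalling, was 5.91-fold higher in basal cells (6.24 CPM ± 2.45 against 37.1 CPM ± 14.4, adjusted p = 6.50e-06), and the immediate early gene Egr1 was 1.92-fold higher there (adjusted p = 0.000451). Ccnd1, which encodes cyclin D1, was 20.2-fold higher in luminal cells (96.8 CPM ± 27.2 against 4.80 CPM ± 0.478, adjusted p = 7.76e-10). Phlda1 was 3.45-fold higher in luminal cells (adjusted p = 0.00144). Ccnd1 and Phlda1 thus ran opposite to Spry2, Dusp6 and Etv5.

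Of 9 other feedback inhibitors, 8 were tested, 4 were higher in basal cells (31.2% of all genes) and none in luminal cells (33.6%). Spred2 was 3.15-fold higher in basal cells (37.8 CPM ± 5.05 against 119 CPM ± 8.81, adjusted p = 6.33e-08), and Spred1 2.21-fold (78.9 CPM ± 15.6 against 175 CPM ± 28.4, adjusted p = 3.23e-05). Both encode Sprouty-related inhibitors of RAF activation. Dusp9, an ERK phosphatase, was low, with overlapping groups (log2 fold change -1.05, adjusted p = 0.0353), and its call was lost without luminal replicate 2 (adjusted p = 0.0634) or 4 (0.0665) and without basal replicate 3 (0.0839) or 4 (0.0884).

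**Figure D5:**
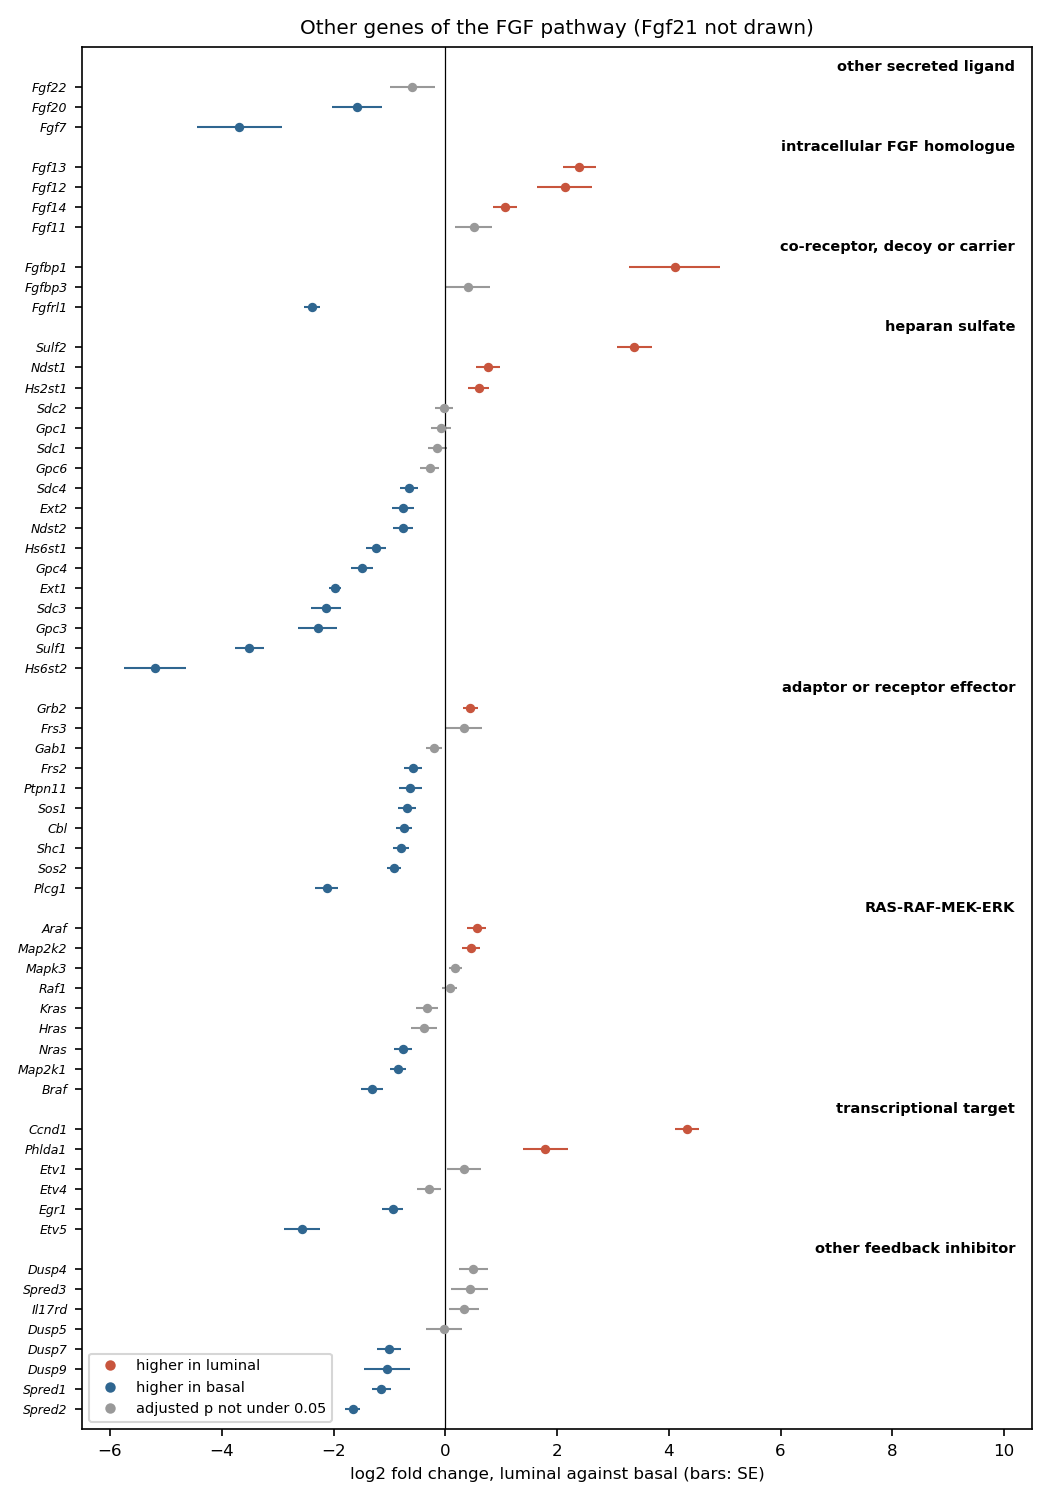
Log2 fold change, luminal against basal, with its SE for tested genes of the pathway list by role, 1 gene of the cascade not being drawn (n = 5 per cell type), in red where higher in luminal, blue where higher in basal and grey where not called. Fgf21 is left out because its luminal libraries were at or near 0, and Sulf1 and Sulf2 lie on opposite sides at -3.51 and 3.38.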

How the data were processed

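Luminal and basal cells from wild type mice were profiled by bulk RNA-seq of poly(A) RNA. The authors deposited raw gene counts, without normalization. The submitters' processing notes name cutadapt 4.2 and Bowtie2 2.3.5.1, and list the builds mm10 and hg19; mouse genes were counted. Bowtie2 leaves reads that span splice junctions unaligned as a rule. The counting tool, annotation and use of strand are not given in the sources used here. The study's methods describe fewer replicates per condition than the 5 used here and another Bowtie2 version, so whether they apply to these libraries in every step is uncertain.

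Of 24594 Entrez genes, 24570 were matched to a symbol in RefSeq (GRCm38.p6). Transcript lengths and overlaps came from GENCODE. Groups follow the cell type label. Genes were filtered by filterByExpr (minimum count 10, minimum total 15), which left 14609, scaled by TMM and compared with edgeR 4.0.16 (R 4.3.3; quasi-likelihood, two-sided, cell type only), with Benjamini-Hochberg adjustment over all genes tested. The SE was taken as the size of the log2 fold change over the root of its F statistic. CPM used TMM-scaled totals. Alternatives used limma 3.58.1 and DESeq2 1.42.0.

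Same-numbered libraries share a leading number in the description, read as the animal although the labels do not say so. Their deviations correlated at 0.0442 on average (-0.134 to 0.252), against -0.00718 for different numbers. As nothing else says which animals the samples came from, p-values measure the spread between these samples. No 2 replicates were alike within counting noise (lowest chi-square per degree of freedom 15.2). The genes and lists were chosen with earlier results of these data known. Of the pathway list, the text names at most 3 called genes per role and direction, by size of change, provided that the higher group averaged 5 CPM or more; 1 gene that this names is not reported here.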

Additional observations from a re-analysis of the deposited data

Results flagged for a closer look

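Among 75 groups of 5 libraries that were tested for a library far from the others, 5 had one, where chance flags about 1 in 20. None concerned the 10 genes. Shc1 was 121 CPM in basal replicate 4 against 142 to 149.9 CPM in the other basal libraries. Luminal replicate 2 had Fgfbp1 at 32.9 CPM, with 18.1 to 21.5 CPM in the other 4, and basal replicate 4 had it at 5.38 CPM, with 0 to 0.539 CPM in the other 4. Sulf1 was 10.8 CPM in luminal replicate 4, the others being at 5.43 to 6.44 CPM. Hs2st1 was 33.0 CPM in basal replicate 1 against 48.4 to 54.6 CPM.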

How the results depend on the processing

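Of 180 values of the 9 genes under the alternatives, 165 kept direction and call, 14 lost the call, 1 gained it and none reversed. Fgfr2 lost its call with no filter on low counts (log2 fold change 0.45, adjusted p = 0.0567) and in the test against a 2-fold change (0.51), and ranged from 0.37 to 0.60 with 1 replicate left out. Spry1 lost its call with upper-quartile factors (-0.45, adjusted p = 0.102), library totals (-0.39, adjusted p = 0.152), the replicate block (-0.55, adjusted p = 0.0941) and the 2-fold test (-0.58), and ranged from -0.69 to -0.43 with 1 replicate left out; for Spry4 that range was -0.72 to -0.47. The causes were not tested. The block changed no other call among the 9 genes tested. The number of members higher in luminal cells was 0 with no filter and in the 2-fold test, and 0 to 1 with 1 replicate left out. The number higher in basal cells, 7 in the main fit, was 6 to 7 under the alternatives and with 1 replicate left out, and 6 in the 2-fold test. In the 2-fold test the pathway list counted 6 luminal and 12 basal calls, and all genes tested gave 1913 and 1995. Upper-quartile factors and library totals moved the median gene by 0.12 and 0.19. Of 557 values of the named pathway genes, 522 kept direction and call and 35 lost the call, among them those of Dusp9 and Map2k2. Fgfr4 held 13 counts over all luminal and 40 over all basal libraries, and the part of depth in its lack of a call was not tested.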

Other observations

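Basal replicates 1 and 5 were the 2 highest basal libraries in 6 of the 9 genes tested, namely Fgfr2, Fgfr3, Spry1, Spry2, Spry4 and Dusp6. Of the 12 feedback inhibitors tested, those of the pathway list included, 8 had these 2 libraries highest, compared with 15% of all 14609 genes. In Spry2, Dusp6, Spred1 and Dusp7 the luminal libraries of the same numbers were also the 2 highest of their group, as in 442 of all genes (3.03%). The same held for Sos1, Phlda1 and Map2k1, which are not feedback inhibitors. Of the 62 pathway genes tested, 24.2% had basal replicates 1 and 5 highest, and 8.06% had replicates 1 and 5 highest in both layers. These libraries were singled out after their values were seen, and the pattern was not tested.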
